A study of Homo sapiens with 12 samples.

Results

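The 36 genes described here form the endoplasmic reticulum (ER) stress and ATF4 response: 3 ER stress sensors, 5 transcription factors, 14 chaperones and folding enzymes, 4 genes of ER-associated degradation (ERAD) and 10 targets of ATF4. They come from a list of gene symbols drawn up with earlier results of these data known, and they are 36 of the 36315 genes to which the deposited transcripts could be paired. All 36 were among the 21601 genes tested. The RNA came from HMC3, an immortalized human cell line used as a model of microglia, in 4 groups of 3 libraries each. In the group EphB2 + ephrin-B1 siRNA, cells were transfected with siRNA against ephrin-B1 (gene EFNB1) for 48 h and then given EphB2-Fc at 2 ug/mL for 24 h, a fusion of the ephrin-B receptor EphB2 that had been clustered with anti-human IgG. The ephrin-B1 siRNA group had the same siRNA and the clustered Fc control (Ctrl-Fc). The EphB2 group had a negative control siRNA and EphB2-Fc, and the Ctrl group had the negative control siRNA and Ctrl-Fc. All 12 libraries were therefore transfected and all received a clustered Fc protein, so none shows untreated cells.

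Secretory and membrane proteins fold in the ER with the help of chaperones such as HSPA5 (BiP). When unfolded proteins gather there, the sensors IRE1 (gene ERN1), PERK (gene EIF2AK3) and ATF6 signal to the nucleus: IRE1 cuts a short intron out of XBP1 mRNA, ATF6 releases a transcription factor, and PERK phosphorylates eIF2alpha, which lowers general translation while that of ATF4 mRNA goes up. ATF4 is also raised by amino acid shortage, viral double-stranded RNA and heme loss through other kinases, and it turns on genes of amino acid supply and of the late stress response, DDIT3 (CHOP) among them. In microglia, this response has been studied in viral infection and neurodegeneration.

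Depth was 13230689 to 25785591 estimated counts per library. EFNB1 had 6.56, 6.03 and 6.38 CPM (estimated counts scaled to library size, TMM-normalised) in the EphB2 + ephrin-B1 siRNA libraries, against 15.6, 18.8 and 18.4 CPM in the EphB2 libraries. It had 7.1, 6.6 and 8.7 CPM in the ephrin-B1 siRNA libraries, against 20.4, 17.5 and 19.3 CPM in the Ctrl libraries. The targeted mRNA was thus lower in all 6 ephrin-B1 siRNA libraries but still present, at 0.376 times its level with the negative control siRNA over all 12 libraries. A single siRNA product was used, so an effect of less ephrin-B1 and an off-target effect of the siRNA cannot be told apart. Of the microglial markers, AIF1 had no count in any library, CX3CR1 had 3 counts in all, and P2RY12, TMEM119, PTPRC and ITGAM stayed under 1 CPM. CSF1R had 1.44 to 2.74 CPM and CD68 20.3 to 43.2 CPM. Most of these defining markers were thus absent or very low, and the cells are called HMC3 here. Mesenchymal or pericyte markers were uneven: the collagen gene COL1A1 had 2474 to 3598 CPM, VIM 1346 to 2447 CPM and PDGFRB 133.6 to 298.8 CPM. TAGLN had 85.2 to 128.9 CPM, while COL1A2, at 20.1 to 87.8 CPM, and ACTA2, at 5.5 to 19.6 CPM, were lower. Replicates 1, 2 and 3 of every group carry the experiment numbers 2, 3 and 5 in the deposited names. Deviations from the group means correlated at 0.74 to 0.82 between same-numbered libraries of replicates 1 and 2, but only at 0.05 to 0.38 for replicate 3. Each comparison was fitted both as groups alone and with the number added as a term (the block).

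Short promoter elements are part of the known control of this response, and a few are shown because the genes that rose and the genes that did not both hold them. The ER stress response element (ERSE) is CCAAT and CCACG with 9 bases between, and its shorter form (ERSE-II) is ATTGG and CCACG with 1 base between. Both are bound by ATF6 in chaperone promoters, the unfolded protein response element (UPRE, TGACGTGG) is bound by XBP1, and the amino acid response element (CARE, TGATGNAA) is bound by ATF4. Both strands of the RefSeq promoter windows (GRCh38.p14, 250 bases before to 50 after each start) were searched, and 34 of the 36 genes have such a window. An ERSE or ERSE-II stood in the windows of 10 of these 34 genes, against 0.161% of 27305 genes: XBP1, HSPA5, HSP90B1, HYOU1, SDF2L1, CALR, CANX, PDIA6, CRELD2 and HERPUD1. A CARE stood in 5 of the 34 (CREB3L2, ATF3, HERPUD1, CHAC1 and ASNS), against 4.46% of all genes, and a UPRE in 1, HYOU1, against 0.927%. That UPRE overlaps the farther of the 2 ERSE-II of HYOU1, and the nearer is shown. The stretch before the HSPA5 start (chr9:125241344-125241493, minus strand) is followed by short windows around the element of HYOU1 (chr11:119057259-119057299, minus strand), HERPUD1 (chr16:56932010-56932050, plus strand), CALR (chr19:12938369-12938417, plus strand), CHAC1 (chr15:40953247-40953284, plus strand) and ASNS (chr7:97872454-97872491, minus strand). Each is written 5′ to 3′ along the gene, with the element in capitals:
HSPA5 upstream, ERSE: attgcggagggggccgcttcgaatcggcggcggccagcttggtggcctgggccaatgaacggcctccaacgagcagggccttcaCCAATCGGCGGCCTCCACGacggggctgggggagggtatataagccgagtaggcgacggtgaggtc
HYOU1 upstream, ERSE-II on the opposite strand: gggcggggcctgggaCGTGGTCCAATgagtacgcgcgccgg
HERPUD1 upstream, ERSE-II: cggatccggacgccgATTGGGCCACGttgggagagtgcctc
CALR upstream, ERSE on the opposite strand: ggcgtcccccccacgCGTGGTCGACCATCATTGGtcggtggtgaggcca
CHAC1 upstream, CARE on the opposite strand: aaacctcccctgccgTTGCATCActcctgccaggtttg
ASNS upstream, CARE: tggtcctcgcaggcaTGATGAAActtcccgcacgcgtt

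Per transcript length, the folding machinery was the most abundant part of the set. CALR, the lectin chaperone calreticulin, had a median of 830.5 TPM (abundance scaled to transcript length and library size) over the 12 libraries, the highest of the 36 genes. HSP90B1 (GRP94) and PDIA3 followed at medians of 443.6 and 433.6 TPM, and their ranges of 334.5 to 580.6 and 294.5 to 623.8 TPM overlapped. Of the estimated counts of PDIA3, 73.9 to 78.0% lay on a transcript annotated for nonsense-mediated decay and 18.4 to 23.0% on coding ones. The same kind of transcript held 37.5 to 58.7% of the counts of CANX, and coding ones 40.4 to 62.0%. ATF4 had a median of 216.2 TPM, above HSPA5 at 169.5 TPM, with overlapping ranges. At the low end stood SLC7A11, the cystine transporter, at 2.74 TPM, SESN2 at 6.15 TPM and CHAC1 at 6.22 TPM. No gene of the set was near the detection limit: the lowest value was 62 estimated counts, for CHAC1.

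DDIT3 and SESN2 rose with ephrin-B1 siRNA under either Fc treatment and HYOU1 under Ctrl-Fc, and further chaperones, ERAD genes and ATF4 targets passed once the replicate number was in the fit. With EphB2-Fc on all cells (EphB2 + ephrin-B1 siRNA against EphB2), 2 of the 36 genes, DDIT3 and SESN2, passed an adjusted p of 0.05 in edgeR's quasi-likelihood test, both higher, where 0.208% of all 21601 genes tested rose and 0.407% fell. With the replicate block 18 rose and 1 fell, against 4.53% and 5.4% of all genes. With Ctrl-Fc (ephrin-B1 siRNA against Ctrl), DDIT3, HYOU1 and SESN2 rose and none fell, against 0.657% of all genes rising and 1.15% falling. With the block 15 rose and none fell, against 6.5% and 7.06%. The median log2 fold change of the 36 genes was 0.25 with EphB2-Fc and 0.17 with Ctrl-Fc, and that of all genes -0.017 and -0.003. The 2 comparisons share no library: in both, 28 of the 36 genes (77.8%) lay above 0 and 3 below it, where 31.6% of all genes lay above 0 in both. As these are bulk libraries, more cells expressing a gene and more of its RNA per cell cannot be told apart.

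In the mean of both knockdown comparisons, which was added after seeing the data and sets the 6 ephrin-B1 siRNA libraries against the 6 negative control siRNA libraries, 12 of the 36 genes rose and none fell, where 2.44% of all genes rose and 2.82% fell. The 12 were DDIT3, HSPA5, HYOU1, DNAJB9, PDIA4, HERPUD1, SEL1L, SYVN1, CHAC1, SESN2, SLC7A11 and GDF15. With the block 22 rose and 1 fell, against 10.2% and 10.4% of all genes. For 9 of the 36 genes all 6 ephrin-B1 siRNA libraries lay above all 6 others in CPM, against 1.83% of all genes, and for 0 of 36 below them, against 2.13%. By role, 4 of 10 ATF4 targets rose, 3 of 4 ERAD genes, 4 of 14 chaperones and folding enzymes, 1 of 5 transcription factors and 0 of 3 sensors. The log2 fold changes of the ATF4 targets ran from 0.1 to 0.98, and those of the chaperones and folding enzymes from -0.09 to 0.39. Of all genes 5.26% passed in either direction. Genes with few counts are part of these shares. With a stricter filter (filterByExpr, 16188 genes) 8.64% of all genes passed, and 13 of the 36. With the filter used elsewhere, the count of the 36 stood at 5 without Ctrl replicate 3 (3.05% of all genes). It stood at 7 without ephrin-B1 siRNA replicate 3 (3.22%) and at 6 without replicate 2 of every group (1.56%). Without replicate 3 of every group it was 0, as it was for all 20658 genes then tested, and with the block and without that replicate it was 16, where 10.6% of all genes passed.

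**Figure D1:**
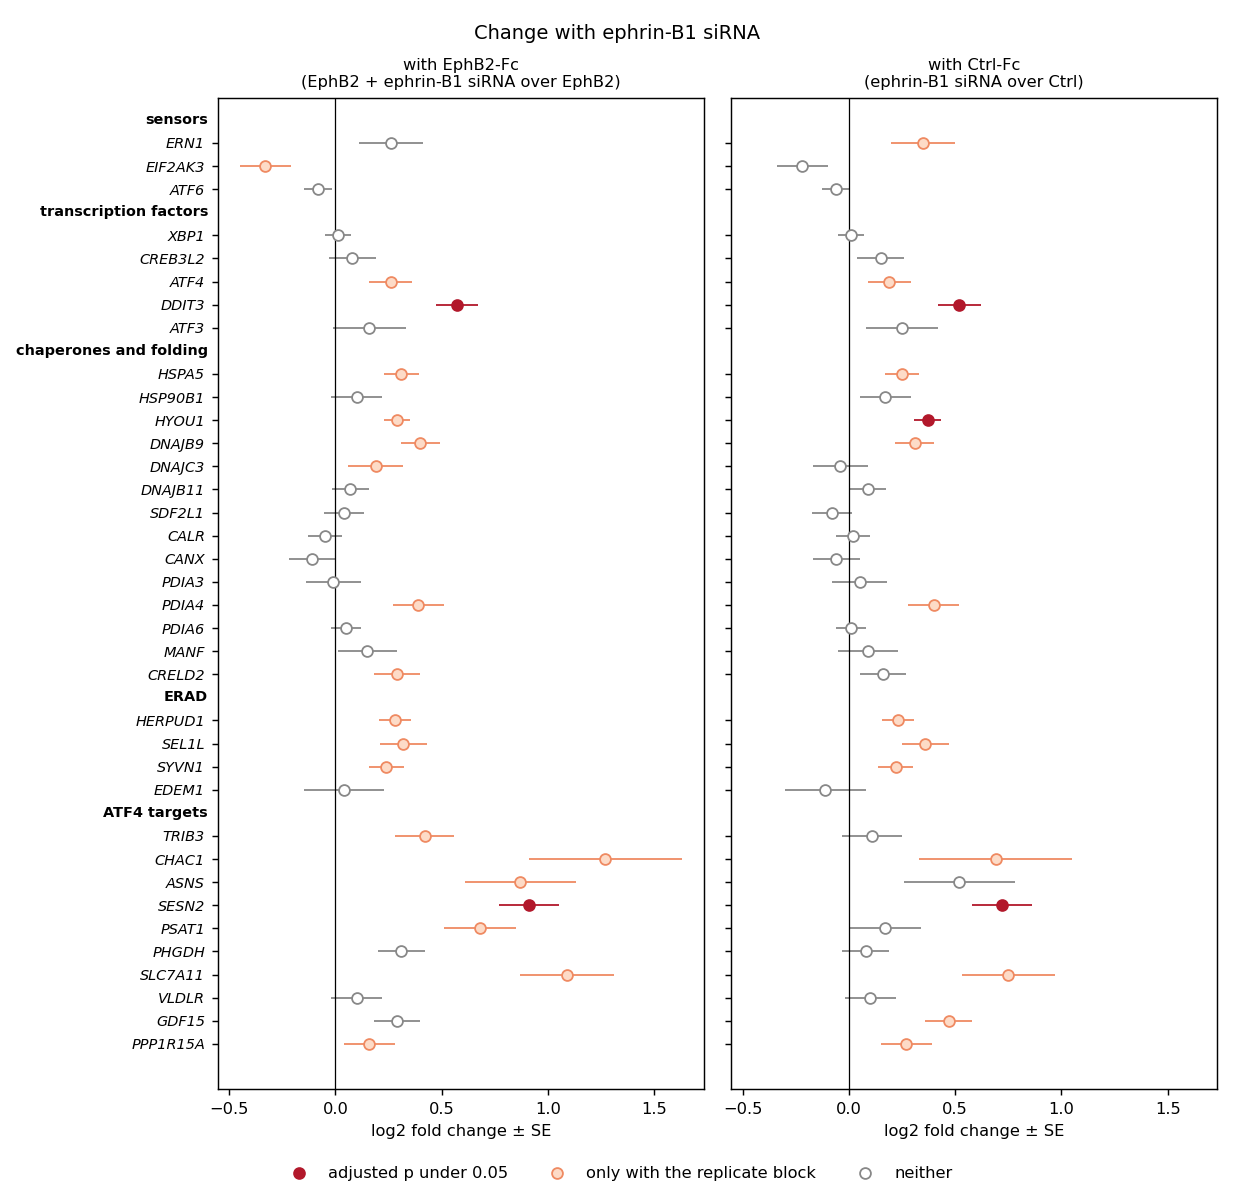
Log2 fold change ± SE (horizontal axis) of each of the 36 genes, grouped by role, for EphB2 + ephrin-B1 siRNA over EphB2 (left) and ephrin-B1 siRNA over Ctrl (right), each 3 libraries against 3. Filled red points passed an adjusted p of 0.05 without the block (2 on the left, 3 on the right) and pale orange points only with it; most points lie right of 0 in both panels.

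Among the transcription factors DDIT3 showed the clearest separation. DDIT3 encodes CHOP, a factor of the late ER stress response that favours cell death. It had 21.7, 21.9 and 20.6 CPM in EphB2 + ephrin-B1 siRNA libraries, against 13.6, 16.1 and 13.7 CPM in EphB2 libraries. It had 19.6, 20.2 and 20.0 CPM in ephrin-B1 siRNA libraries, against 13.0, 13.3 and 15.5 CPM in Ctrl libraries. No ephrin-B1 siRNA library was as low as the highest of the others. The log2 fold change was 0.57 ± 0.099 (SE, adjusted p = 0.0349) with EphB2-Fc and 0.52 ± 0.1 (adjusted p = 0.0263) with Ctrl-Fc. DDIT3 shares 355 exonic bases with MARS1, the methionyl-tRNA synthetase gene on the opposite strand, and 58 with MBD6 on that strand, and whether strand was used in counting is not given in the sources used here. MARS1 itself had log2 fold changes of 0.36 (adjusted p = 0.0979) with EphB2-Fc and 0.27 (adjusted p = 0.166) with Ctrl-Fc, and its part in the DDIT3 values was not tested.

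ATF4, the factor that gives the pathway its name, had 252, 270.1 and 276 CPM in EphB2 + ephrin-B1 siRNA libraries, against 195, 242 and 230.1 CPM in EphB2 libraries. In ephrin-B1 siRNA libraries it had 239, 251 and 250.1 CPM, against 189, 241 and 220.4 CPM in Ctrl libraries. The ephrin-B1 siRNA library was higher under every replicate number, while the 2 sets of 6 libraries overlapped. Replicate 1 was the lowest of each group. Its log2 fold changes of 0.26 ± 0.1 and 0.19 ± 0.1 passed only with the block (adjusted p = 0.371 against 0.00637 with the block for EphB2-Fc, and 0.512 against 0.0278 for Ctrl-Fc). ATF3, a stress-induced factor that ATF4 targets, had 17.6 to 24.0 CPM over the 6 ephrin-B1 siRNA libraries, against 13.2 to 21.3 CPM in the 6 others, with log2 fold changes of 0.16 ± 0.17 with EphB2-Fc and 0.25 ± 0.17 with Ctrl-Fc. CREB3L2, an ER-anchored relative of ATF6, had 526 to 718 CPM, against 546 to 637 CPM. Neither passed in either comparison, with or without the block. In the mean of both knockdown comparisons ATF3 and CREB3L2 rose with the block and not without it. XBP1 mRNA had 133 to 150.3 CPM in ephrin-B1 siRNA libraries, against 132 to 145 CPM in the others, with a log2 fold change of 0.01 in both comparisons.

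The sensors differed among themselves. ERN1, which encodes IRE1, had 17.2 to 23.5 CPM over the ephrin-B1 siRNA libraries, against 13.1 to 19.2 CPM in the others. With Ctrl-Fc its log2 fold change was 0.35 ± 0.15, passing only with the block (adjusted p = 0.342, and 0.0137 with the block). EIF2AK3, which encodes PERK, went the other way. It had 31.7, 33.9 and 32.8 CPM in EphB2 + ephrin-B1 siRNA libraries, against 35.7, 47.9 and 40.0 CPM in EphB2 libraries, where the groups do not overlap. The log2 fold change was -0.33 ± 0.12, and with the block it was the single gene of the set that fell (adjusted p = 0.31, and 0.0272 with the block). With Ctrl-Fc it had 32.7, 30.8 and 33.6 CPM in ephrin-B1 siRNA libraries, against 32.3, 41.6 and 39.1 CPM in Ctrl libraries, and replicate 1 did not share the direction. ATF6 had 72.4 to 85.8 CPM with ephrin-B1 siRNA, against 77.7 to 90.7 CPM without it, and passed in neither comparison.

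**Figure D2:**
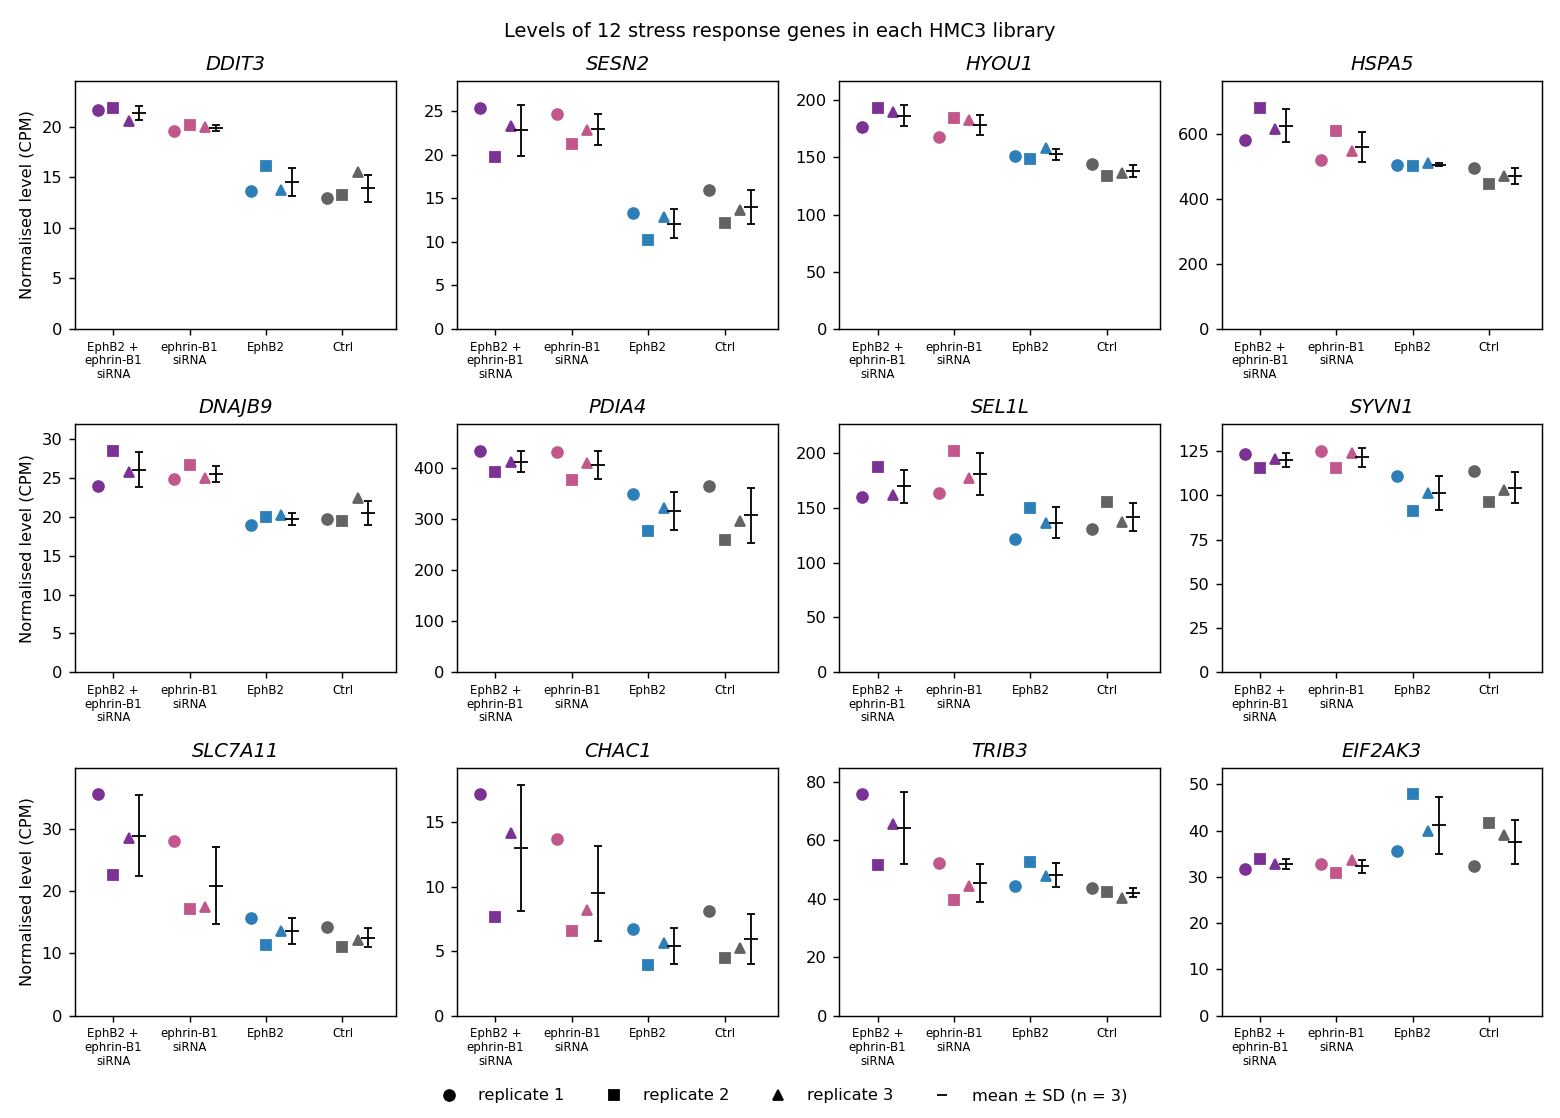
Normalised level (vertical axis, CPM, from 0) of 12 genes in each of the 12 libraries, by group, with the replicate number as the symbol and the mean ± SD (n = 3) as a bar beside each group. For DDIT3, SESN2, HYOU1, HSPA5, DNAJB9, PDIA4, SEL1L, SYVN1 and SLC7A11 the 6 libraries with ephrin-B1 siRNA lie above the 6 without it.

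Some chaperones and folding enzymes rose, while others passed in neither knockdown comparison. HYOU1 (GRP170), which releases ADP from HSPA5, had 176, 194 and 189.6 CPM in EphB2 + ephrin-B1 siRNA libraries, against 151, 149 and 158 CPM in EphB2 libraries. It had 168, 184 and 182 CPM in ephrin-B1 siRNA libraries, against 144, 133 and 137 CPM in Ctrl libraries. Its log2 fold change was 0.29 ± 0.063 with EphB2-Fc (adjusted p = 0.0763, and 0.0024 with the block) and 0.37 ± 0.063 with Ctrl-Fc (adjusted p = 0.0154).

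HSPA5, the main ER chaperone and the keeper of the sensors in their inactive state, had 582, 682 and 615 CPM in EphB2 + ephrin-B1 siRNA libraries, against 504, 501 and 510.1 CPM in EphB2 libraries. It had 519.6, 609.7 and 548 CPM in ephrin-B1 siRNA libraries, against 496, 445 and 470.2 CPM in Ctrl libraries. All groups with the siRNA lay above their partners, by a smaller margin in replicate 1 than in replicate 2. The log2 fold changes of 0.31 ± 0.081 and 0.25 ± 0.081 passed only with the block (adjusted p = 0.143 against 0.00665 with the block, and 0.192 against 0.017). Over all 12 libraries HSPA5 was 1.21 times its level with the negative control siRNA (adjusted p = 0.0161).

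PDIA4, a disulfide isomerase, and DNAJB9 (ERdj4), a co-chaperone that brings HSPA5 to IRE1, rose in the same mean, to 1.31 and 1.28 times their levels with the negative control siRNA (adjusted p = 0.0227 and 0.00818). PDIA4 had 376 to 433 CPM in ephrin-B1 siRNA libraries, against 259.6 to 365 CPM in the others. With EphB2-Fc its log2 fold change was 0.39 ± 0.12 (adjusted p = 0.232, and 0.000756 with the block) and with Ctrl-Fc 0.4 ± 0.12 (0.159, and 0.000283 with the block). DNAJB9 had 24.0 to 28.5 CPM, against 18.9 to 22.4 CPM, with log2 fold changes of 0.4 ± 0.092 (adjusted p = 0.0865, and 0.00413 with the block) and 0.31 ± 0.091 (0.138, and 0.0127 with the block). CRELD2, a secreted disulfide isomerase, had 28.0 to 34.1 CPM, against 24.1 to 30.5 CPM; it passed with the block with EphB2-Fc (log2 fold change 0.29 ± 0.11, adjusted p = 0.351, and 0.0128 with the block) and in neither fit with Ctrl-Fc. DNAJC3, the inhibitor of PERK known as p58IPK, had 51.5 to 66.0 CPM, against 45.8 to 65.5 CPM, and also passed only with the block and with EphB2-Fc (0.19 ± 0.13, adjusted p = 0.726, and 0.0394 with the block).

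The other chaperones and folding enzymes passed in neither knockdown comparison under either fit. HSP90B1 had 696 to 959.6 CPM in ephrin-B1 siRNA libraries, against 707 to 803 CPM in the others. Its siRNA libraries spanned a wider range than the control ones. In the mean of both knockdown comparisons HSP90B1 rose with the block and not without it. CALR had 1106 to 1299 CPM, against 1146 to 1289.7 CPM, and CANX (calnexin), its membrane-bound relative, had 117 to 149 CPM, against 131 to 173 CPM. PDIA3 (ERp57), which works with both lectins, had 513 to 649 CPM, against 478 to 654 CPM. These 3 genes of the calnexin cycle had log2 fold changes of -0.11 to 0.05 in the 2 comparisons. PDIA6 had 343 to 393 CPM, against 319.7 to 387 CPM, DNAJB11 (ERdj3) 36.2 to 43.8 CPM, against 37.0 to 42.5 CPM, and its partner SDF2L1 14.4 to 18.5 CPM, against 15.1 to 18.7 CPM. Of these genes HSP90B1, DNAJB11, PDIA3 and PDIA6 share exonic bases with genes on the opposite strand, as CRELD2 does with ALG12, and PDIA3 has a near copy, PDIA3P1, with 1165 counts over the 12 libraries against 127894 for PDIA3. MANF, a secreted protective factor that ER stress releases, had 41.4 to 62.1 CPM, against 43.6 to 52.7 CPM.

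Genes with and without a promoter element were among those that rose. In the mean of both knockdown comparisons 3 of the 10 genes with an ERSE or ERSE-II rose (HSPA5, HYOU1 and HERPUD1), with log2 fold changes of -0.09 to 0.33 over the 10, against 8 of the 24 with neither, with -0.27 to 0.98 over the 24. With the block the counts were 5 of 10 rising, against 16 of 24 rising and 1 falling. The CALR window shown above holds an ERSE as the HSPA5 window does, while CALR did not pass. In the same mean all 5 genes with a CARE rose with the block, against 16 rising and 1 falling of the 29 without one. Without the block 2 of the 5 rose (HERPUD1 and CHAC1), against 9 of the 29. Of all genes 2.44% rose and 2.82% fell without the block, and 10.2% and 10.4% with it. ATF3 and CREB3L2, among the 5, passed in neither of the 2 knockdown comparisons under either fit. A match of these letters is a description of the window and not a site of binding.

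Of the ERAD genes, which draw misfolded proteins out of the ER for degradation, 3 of 4 moved together. SEL1L, the scaffold of the ERAD ubiquitin ligase, had 159.8, 187 and 162 CPM in EphB2 + ephrin-B1 siRNA libraries, against 122, 150.3 and 137 CPM in EphB2 libraries. It had 163, 202 and 178 CPM in ephrin-B1 siRNA libraries, against 131, 156 and 137 CPM in Ctrl libraries. Replicate 2 was the highest of each group, and within each replicate number the siRNA library was the higher one. Its log2 fold change was 0.32 ± 0.11 with EphB2-Fc (adjusted p = 0.283, and 0.000282 with the block) and 0.36 ± 0.11 with Ctrl-Fc (adjusted p = 0.152, and 5.43e-05 with the block). SYVN1, the ligase that SEL1L holds, had 115 to 125 CPM in ephrin-B1 siRNA libraries, against 91.4 to 114 CPM in the others, and HERPUD1, which joins the same complex, had 55.3 to 69.3 CPM, against 49.4 to 56.1 CPM. The log2 fold changes of SYVN1 were 0.24 ± 0.083 with EphB2-Fc (adjusted p = 0.278, and 0.00356 with the block) and 0.22 ± 0.083 with Ctrl-Fc (0.281, and 0.00436 with the block). Those of HERPUD1 were 0.28 ± 0.075 (0.146, and 0.0024 with the block) and 0.23 ± 0.075 (0.192, and 0.00617 with the block). Both passed in the mean of both comparisons without the block (adjusted p = 0.0428 for SYVN1 and 0.0165 for HERPUD1). SYVN1 shares 356 exonic bases with MRPL49 on the opposite strand and 130 with FAU on its own, whose log2 fold changes in the 2 comparisons lay between -0.06 and 0.01. EDEM1, a lectin that marks glycoproteins for ERAD, had 70.8 to 110.7 CPM, against 70.7 to 105 CPM, and passed in neither.

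SESN2 (sestrin 2), an ATF4 target that restrains mTORC1, was the gene of the set with the smallest p over all 12 libraries. It had 25.4, 19.7 and 23.3 CPM in EphB2 + ephrin-B1 siRNA libraries, against 13.3, 10.2 and 12.9 CPM in EphB2 libraries. It had 24.7, 21.2 and 22.8 CPM in ephrin-B1 siRNA libraries, against 16.0, 12.2 and 13.7 CPM in Ctrl libraries. The log2 fold change was 0.91 ± 0.14 (adjusted p = 0.0227) with EphB2-Fc and 0.72 ± 0.14 (adjusted p = 0.0293) with Ctrl-Fc. The p53 pathway also acts on SESN2, and 2 of the 10 p53 targets on a separate list rose in the mean of both comparisons, SESN1 and CDKN1A, with log2 fold changes of 0.87 and 0.64, and 8 with the block, where 2.44% and 10.2% of all genes rose. Their part in the SESN2 values was not tested.

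SLC7A11 (xCT) imports cystine for glutathione synthesis. It had 35.6, 22.6 and 28.6 CPM in EphB2 + ephrin-B1 siRNA libraries, against 15.7, 11.4 and 13.6 CPM in EphB2 libraries. It had 28.1, 17.1 and 17.5 CPM in ephrin-B1 siRNA libraries, against 14.2, 11.1 and 12.2 CPM in Ctrl libraries. The 2 sets of 6 libraries did not overlap, and replicate 1 was the highest of every group. Its log2 fold changes of 1.09 ± 0.22 and 0.75 ± 0.22 passed with the block (adjusted p = 0.0544 against 2.79e-05 with the block, and 0.145 against 0.000275).

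CHAC1, which degrades glutathione, had 17.2, 7.67 and 14.2 CPM in EphB2 + ephrin-B1 siRNA libraries, against 6.69, 3.92 and 5.62 CPM in EphB2 libraries. It had 13.7, 6.6 and 8.22 CPM in ephrin-B1 siRNA libraries, against 8.16, 4.44 and 5.23 CPM in Ctrl libraries. The 2 sets of 6 libraries overlapped, at 6.6 to 17.2 CPM against 3.92 to 8.16 CPM, while every replicate number gave the same direction. Its log2 fold changes of 1.27 ± 0.36 and 0.69 ± 0.36 passed only with the block (adjusted p = 0.173 against 8.57e-05 with the block, and 0.496 against 0.00422).

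Amino acid synthesis was less even. ASNS, asparagine synthetase, had 73.4, 35.9 and 59.1 CPM in EphB2 + ephrin-B1 siRNA libraries, against 32.7, 31.0 and 28.4 CPM in EphB2 libraries. It had 60.9, 30.4 and 42.5 CPM in ephrin-B1 siRNA libraries, against 31.3, 31.3 and 31.0 CPM in Ctrl libraries. Its 6 libraries without the siRNA lay within 28.4 to 32.7 CPM, while with the siRNA replicate 2 of each group stayed near that range and replicates 1 and 3 stood above it. With EphB2-Fc ASNS passed only with the block (log2 fold change 0.87 ± 0.26, adjusted p = 0.193, and 0.00532 with the block), and with Ctrl-Fc in neither fit. PSAT1, phosphoserine aminotransferase, followed ASNS: 88.5, 61.1 and 71.3 CPM in EphB2 + ephrin-B1 siRNA libraries, against 39.4, 57.0 and 41.8 CPM in EphB2 libraries (log2 fold change 0.68 ± 0.17, adjusted p = 0.12, and 0.0093 with the block). With Ctrl-Fc PSAT1 had a log2 fold change of 0.17 ± 0.17 and passed in neither fit. PHGDH, the first enzyme of serine synthesis, had 105 to 130.1 CPM with the siRNA, against 81.2 to 112 CPM without it, and passed in none.

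TRIB3, a pseudokinase that ATF4 and CHOP induce, had 75.8, 51.4 and 65.6 CPM in EphB2 + ephrin-B1 siRNA libraries, against 44.3, 52.5 and 47.9 CPM in EphB2 libraries. In ephrin-B1 siRNA libraries it had 52.3, 39.6 and 44.2 CPM, against 43.6, 42.3 and 40.3 CPM in Ctrl libraries. Replicate 2 was lower with the siRNA under both Fc treatments. TRIB3 passed with EphB2-Fc and the block (log2 fold change 0.42 ± 0.14, adjusted p = 0.256, and 0.029 with the block) and in neither fit with Ctrl-Fc.

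GDF15, a secreted stress cytokine, had 24.0, 26.7 and 26.1 CPM in ephrin-B1 siRNA libraries, against 21.4, 17.3 and 16.9 CPM in Ctrl libraries (log2 fold change 0.47 ± 0.11, adjusted p = 0.061, and 0.00513 with the block). With EphB2-Fc it had 19.2, 20.4 and 20.1 CPM in EphB2 + ephrin-B1 siRNA libraries, against 14.5, 17.0 and 17.1 CPM in EphB2 libraries, and passed in neither fit. PPP1R15A (GADD34), the phosphatase subunit that restores translation, had 78.5 to 110.0 CPM with the siRNA, against 68.2 to 95.5 CPM without it. It passed only with the block in both comparisons (log2 fold change 0.16 ± 0.12 with EphB2-Fc, adjusted p = 0.744, and 0.0418 with the block; 0.27 ± 0.12 with Ctrl-Fc, 0.385, and 0.00151 with the block). VLDLR, a lipoprotein receptor that PERK signalling induces, had 48.3 to 65.7 CPM, against 44.5 to 59.1 CPM, and passed in neither.

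Both treatments together, compared with neither (EphB2 + ephrin-B1 siRNA against Ctrl), gave the longest list of the single comparisons: 7 genes rose and none fell, against 0.736% of all genes rising and 1.27% falling, and with the block 21 rose and 1 fell, against 6.06% and 9.04%. The 7 were HYOU1 (log2 fold change 0.44 ± 0.063, adjusted p = 0.0059), DDIT3 (0.62 ± 0.1, 0.0101), SLC7A11 (1.22 ± 0.22, 0.0175), HSPA5 (0.41 ± 0.082, 0.0267), SESN2 (0.71 ± 0.14, 0.0288), HERPUD1 (0.35 ± 0.075, 0.0379) and TRIB3 (0.61 ± 0.14, 0.0472). Of those that passed only with the block, PSAT1 (0.65 ± 0.17, 0.0873, and 0.00907 with the block), DNAJB9 (0.34 ± 0.092, 0.0897, and 0.00664), PPP1R15A (0.42 ± 0.12, 0.101, and 3.75e-05), PDIA4 (0.42 ± 0.12, 0.119, and 0.000149) and ASNS (0.85 ± 0.26, 0.138, and 0.00453) had the smallest p. The gene that fell with the block was ATF6, the sensor, at 80.0, 77.7 and 72.4 CPM in EphB2 + ephrin-B1 siRNA libraries, against 86.8, 90.7 and 88.4 CPM in Ctrl libraries (log2 fold change -0.21 ± 0.066, adjusted p = 0.157, and 0.012 with the block). ATF4 had a log2 fold change of 0.29 ± 0.1 (adjusted p = 0.194, and 0.00157 with the block), ATF3 of 0.31 ± 0.17 (0.502, and 0.0398 with the block) and XBP1 of 0.08 ± 0.061, which passed in neither.

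Without the block the calls fell when single libraries were left out, those of all genes as well as those of the 36. For EphB2 + ephrin-B1 siRNA against Ctrl the 7 genes became 1 without Ctrl replicate 2, 2 without Ctrl replicate 3 or EphB2 + ephrin-B1 siRNA replicate 3, 3 without EphB2 replicate 3 or ephrin-B1 siRNA replicate 3, and 4 without EphB2 + ephrin-B1 siRNA replicate 1, while 0.489% to 1.32% of all genes passed in these fits, against 2.01% with all libraries. For ephrin-B1 siRNA against Ctrl the 3 genes became 0 without replicate 2 or 3 of either group and 1 without ephrin-B1 siRNA replicate 1 or EphB2 + ephrin-B1 siRNA replicate 3, at 0.351% to 1.17% of all genes, against 1.81%. For EphB2 + ephrin-B1 siRNA against EphB2 the 2 genes became 0 without any EphB2 + ephrin-B1 siRNA replicate, EphB2 replicate 2 or 3, Ctrl replicate 3 or ephrin-B1 siRNA replicate 3, and 1 without EphB2 replicate 1, Ctrl replicate 2 or ephrin-B1 siRNA replicate 2, at 0.00932% to 0.552% of all genes, against 0.616%. Without replicate 3 of every group no gene of all 20658 passed in any of the 3. When the 6 libraries compared were fitted alone none of the 36 passed, and of all genes 93 did for EphB2 + ephrin-B1 siRNA against Ctrl (0.471%), 88 for ephrin-B1 siRNA against Ctrl (0.448%) and 0 for EphB2 + ephrin-B1 siRNA against EphB2. With limma on log2(TPM + 1) none of the 36 passed in these comparisons either, and at most 4 of all genes did (0.0185%). With the block and without any 1 library the counts were 16 to 22 genes for EphB2 + ephrin-B1 siRNA against Ctrl (10.6% to 16.6% of all genes). They were 11 to 18 for ephrin-B1 siRNA against Ctrl (8.39% to 15.0%) and 15 to 20 for EphB2 + ephrin-B1 siRNA against EphB2 (5.8% to 9.88%). Without replicate 3 of every group they were 11, 7 and 7 in the same order, against 5.65%, 4.02% and 1.61% of all genes, and the first was 14 without replicate 2 of every group, against 9.61%.

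EphB2-Fc gave few calls in this set. In cells with the negative control siRNA (EphB2 against Ctrl), none of the 36 genes passed in edgeR, against 0.037% of all genes, 2 had an unadjusted p under 0.05 (HYOU1 and PPP1R15A), against 7.56%, and DESeq2 called none, against 0.949%. With the block 1 rose and none fell, against 2.13% of all genes rising and 3.2% falling. That gene was PPP1R15A, with 81.4, 93.0 and 95.5 CPM in EphB2 libraries, against 68.2, 80.4 and 76.5 CPM in Ctrl libraries (log2 fold change 0.26 ± 0.12, adjusted p = 0.654, and 0.00442 with the block). The count with the block was 2 without Ctrl replicate 1, where 3.18% of all genes passed, and 0 without replicate 3 of every group, where 0.678% of all genes passed. HYOU1 had a log2 fold change of 0.15 ± 0.063 (adjusted p = 0.637), ATF6 of -0.12 ± 0.066 (0.733) and GDF15 of -0.19 ± 0.11 (0.758). HSPA5 was at 0.1 ± 0.081, ATF3 at 0.14 ± 0.17, XBP1 at 0.06 ± 0.061, DDIT3 at 0.05 ± 0.1 and ATF4 at 0.04 ± 0.1 on the same scale.

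In cells with ephrin-B1 siRNA (EphB2 + ephrin-B1 siRNA against ephrin-B1 siRNA), none passed without the block, against 0.116% of all genes, while 4 had an unadjusted p under 0.05 (TRIB3, GDF15, PSAT1 and SDF2L1), against 8.46%, and DESeq2 called 1, TRIB3, against 1.32%. With the block 3 rose and 1 fell, against 2.82% and 4.11% of all genes. TRIB3 had 75.8, 51.4 and 65.6 CPM in EphB2 + ephrin-B1 siRNA libraries, against 52.3, 39.6 and 44.2 CPM in ephrin-B1 siRNA libraries (log2 fold change 0.5 ± 0.14, adjusted p = 0.277, and 0.0126 with the block). SLC7A11 (0.47 ± 0.22, 0.586, and 0.00662 with the block) and CHAC1 (0.46 ± 0.35, 0.838, and 0.0447 with the block) rose as well. GDF15 fell, at 19.2, 20.4 and 20.1 CPM in EphB2 + ephrin-B1 siRNA libraries, against 24.0, 26.7 and 26.1 CPM in ephrin-B1 siRNA libraries (-0.36 ± 0.11, adjusted p = 0.338, and 0.0382 with the block). PSAT1 (0.48 ± 0.17, adjusted p = 0.457, and 0.0666 with the block) and SDF2L1 (0.23 ± 0.095, 0.523, and 0.0736 with the block) passed in neither fit. Nor did DDIT3, ATF4, HSPA5, XBP1 and ATF3, with log2 fold changes of 0.1, 0.11, 0.16, 0.07 and 0.06. The 4 calls with the block became 0 without ephrin-B1 siRNA replicate 3, 1 without ephrin-B1 siRNA replicate 2 or EphB2 + ephrin-B1 siRNA replicate 1 or 3, and 2 without ephrin-B1 siRNA replicate 1, at 3.07% to 4.08% of all genes, against 6.93% with all libraries; without replicate 3 of every group they were 0, against 0.818% of all genes.

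**Figure D3:**
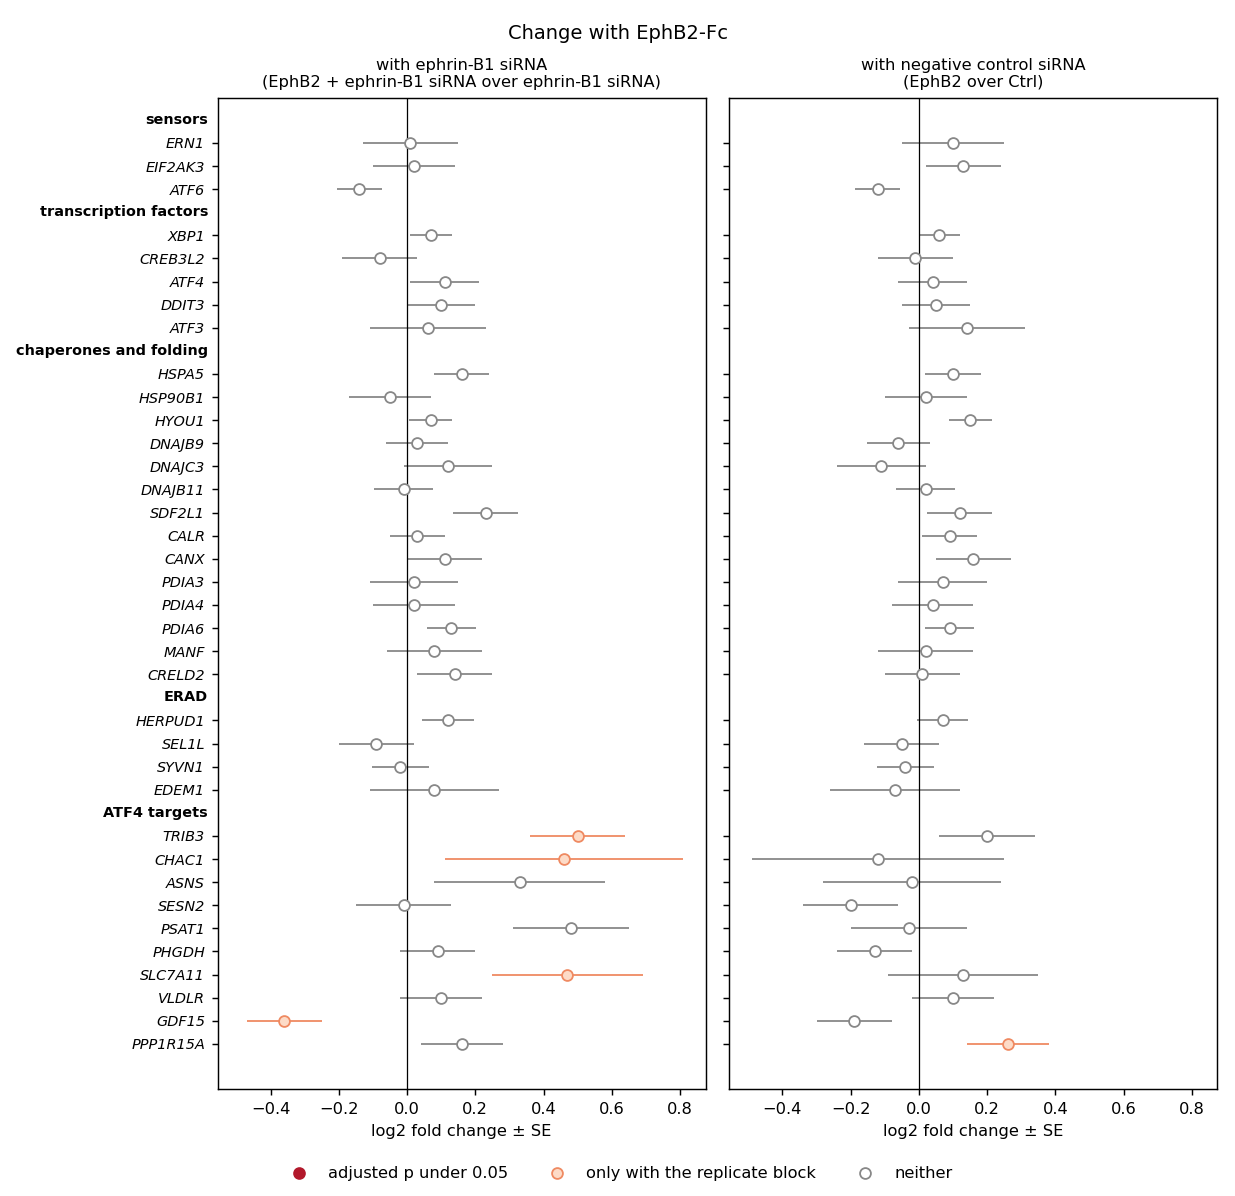
Log2 fold change ± SE (horizontal axis) of each of the 36 genes, grouped by role, for EphB2 + ephrin-B1 siRNA over ephrin-B1 siRNA (left) and EphB2 over Ctrl (right), each 3 libraries against 3. No point passed an adjusted p of 0.05 without the block; the pale orange points (4 on the left, 1 on the right) passed with it.

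Over both EphB2-Fc comparisons, a mean that was also added after seeing the data, none of the 36 genes passed in edgeR, where 1.03% of all genes did; 8 had an unadjusted p under 0.05, against 13.0%, and DESeq2 called TRIB3 and GDF15, against 3.73%. With the block 5 rose (SDF2L1, PDIA6, TRIB3, SLC7A11 and PPP1R15A) and 2 fell (ATF6 and GDF15), against 5.65% and 8.38% of all genes. PPP1R15A was 1.16 times its level with Ctrl-Fc (adjusted p = 0.296, and 0.000657 with the block) and GDF15 0.824 times (adjusted p = 0.131, and 0.0179 with the block). The 7 calls became 4 without replicate 3 of any of the groups or without ephrin-B1 siRNA replicate 1 (10.4% to 11.5% of all genes, against 14.0% with all libraries), and 1 without replicate 3 of every group, against 5.0%. No gene of the 36 had all 6 EphB2-Fc libraries above or below all 6 Ctrl-Fc libraries (0 and 0, against 0.926% and 0.833% of all genes). Of the 10 p53 targets on the separate list, 0 rose and 3 fell in the same mean, with a median log2 fold change of -0.26. With the block 0 of the 10 rose and 6 fell, against 5.65% and 8.38% of all genes. A link between these changes and the fall of GDF15 was not tested.

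Whether the siRNA changed the response to EphB2-Fc was tested as an interaction. None of the 36 genes passed in edgeR, against 0.0% of all genes without the block and 0.00463% with it, and DESeq2 called none, against 0.00926%. At an unadjusted p under 0.05 there were 0 of the 36 without the block, against 2.31% of all genes, and 4 with it, against 6.7%. The 4 were CHAC1 (0.57 ± 0.19 with the block, unadjusted p = 0.00894), DNAJC3 (0.22 ± 0.076, 0.0105), SLC7A11 (0.36 ± 0.14, 0.0196) and PSAT1 (0.52 ± 0.21, 0.0265), with adjusted p of 0.647 to 0.694. Without the block the smallest p was that of PSAT1, whose difference of log2 fold changes was 0.51 ± 0.24 (unadjusted p = 0.0567), and CHAC1 and SLC7A11 had differences of 0.58 ± 0.51 and 0.35 ± 0.31. For TRIB3 the difference was 0.31 ± 0.19, for PHGDH 0.22 ± 0.15 and for DNAJC3 0.22 ± 0.18, and for DDIT3, ATF4, ATF3, XBP1 and HSPA5 it lay between -0.08 and 0.07. The larger fold changes with EphB2-Fc described above for ATF4 targets were therefore not shown to differ from those with Ctrl-Fc.

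XBP1 gives a second view of the IRE1 arm, since active IRE1 removes an intron of 26 bases and so makes the coding frame of the active factor. The intron is shown because a transcript in the annotation without it was quantified separately. It lies on chromosome 22 (hg38, chr22:28796113-28796168, minus strand, with 15 bases on each side). A G opens the annotated intron and another follows it, so a cut placed after that first G leaves the same spliced sequence. The capitals mark the 26 bases that the annotated transcript lacks, as the annotation places them:
XBP1 intron cut by IRE1: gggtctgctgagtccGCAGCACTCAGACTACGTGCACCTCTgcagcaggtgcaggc
This transcript held 0, 1.44 and 2.56% of XBP1 estimated counts in EphB2 + ephrin-B1 siRNA libraries, against 0.865, 0 and 4.16% in EphB2 libraries. It held 6.83, 0.00226 and 4.15% in ephrin-B1 siRNA libraries, against 0, 1.71 and 0% in Ctrl libraries. The libraries of every group included at least 1 at or near 0, so the groups overlapped. The mean was 3.66 ± 3.44% in ephrin-B1 siRNA libraries and 0.57 ± 0.987% in Ctrl libraries (SD, n = 3 each), a difference of 3.09 percentage points (two-sided exact permutation test, p = 0.2, where 0.1 is the smallest this design allows). In the other 4 comparisons the exact p was 0.3 to 0.9. The shares rest on 0 to 175 estimated counts that kallisto divided between overlapping transcripts. Of these transcripts the one without the intron is listed with 1131 bases and the longest protein-coding one with 1850. The intron was read from a later version of that transcript than the quantified one, and the versions were paired by ID. Reads across the junction were not counted here.

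**Figure D4:**
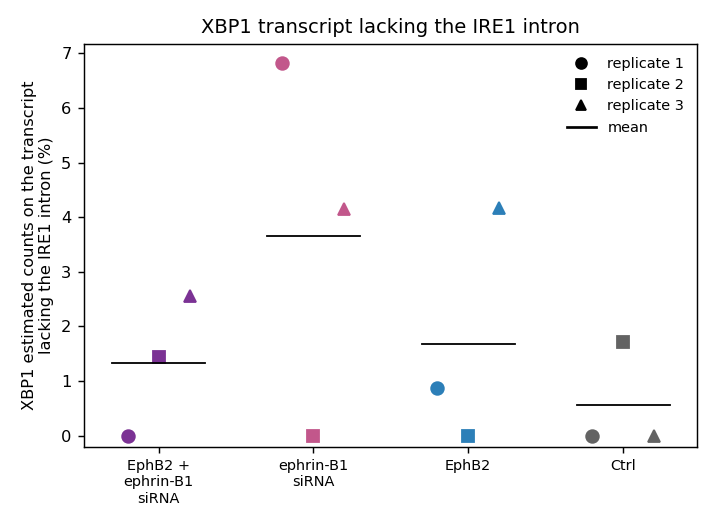
Share of XBP1 estimated counts (vertical axis, %) given to the annotated transcript that lacks the 26-base IRE1 intron, in each of the 12 libraries by group, with the replicate number as the symbol and the mean as a line. The highest value is 6.83%, in ephrin-B1 siRNA replicate 1, and every group has a library at or near 0.

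The replicate number moved this set as well, as the symbols in the plot of levels by library show. In the fit with group and replicate number, 22 of the 36 genes differed between replicates 1 and 2 (11 higher and 11 lower in replicate 1), where 17.9% of all genes were higher and 18.4% lower. Between replicates 1 and 3 it was 9 genes (3 higher and 6 lower, against 7.49% and 9.34%), and between replicates 2 and 3 it was 7 (3 higher and 4 lower, against 8.06% and 8.43%). A p here compares these 3 experiments only, and their dates, passages and handling are not given. ATF4 targets were found on both sides. Higher in replicate 1 than in replicate 2 were the ATF4 targets CHAC1 (log2 fold change 0.99 ± 0.12, adjusted p = 9.52e-06), ASNS (0.56 ± 0.14, 0.00696), SLC7A11 (0.56 ± 0.084, 8.58e-05) and SESN2 (0.34 ± 0.065, 0.000867), and with them DNAJC3, PDIA3, PDIA4, PDIA6, SYVN1, ERN1 and ATF3. Lower in replicate 1 were ATF4 itself (-0.21 ± 0.046, 0.0024), PPP1R15A and VLDLR, and with them EDEM1 (-0.49 ± 0.059, 1.35e-05), MANF, HSP90B1, SEL1L, CREB3L2, CALR, HERPUD1 and EIF2AK3. CHAC1 had 6.69 to 17.2 CPM in the 4 libraries of replicate 1, against 3.92 to 7.67 CPM in those of replicate 2, and was higher in each of the 4 groups. EDEM1 had 70.7 to 77.4 CPM in replicate 1, against 97.3 to 110.7 CPM in replicate 2, with no overlap.

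**Figure D5:**
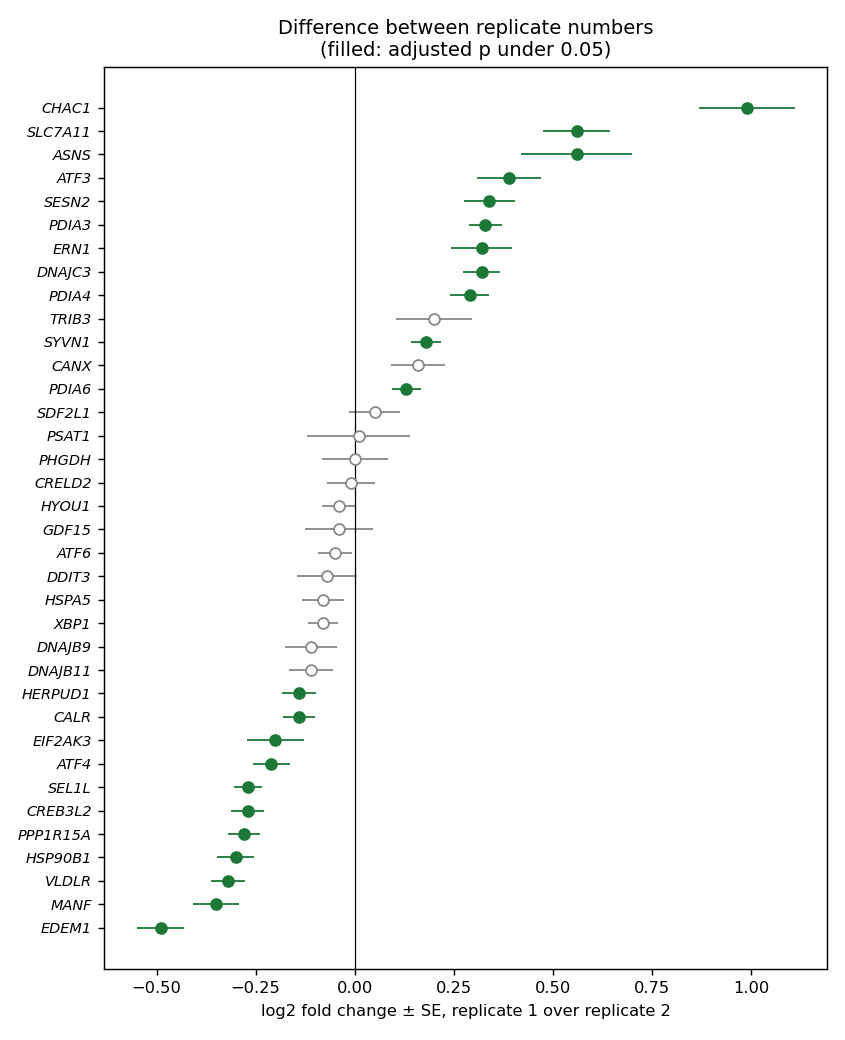
Log2 fold change ± SE (horizontal axis) between replicate 1 and replicate 2 for each of the 36 genes, sorted by value, from the fit of group and replicate number over all 12 libraries. Filled points passed an adjusted p of 0.05: 11 lie right of 0, with CHAC1 the farthest at 0.99, and 11 lie left of it, with EDEM1 the farthest at -0.49.

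Other genes of the pathway, from lists of related processes, moved in both directions in the mean of both knockdown comparisons, where of all genes 2.44% rose and 2.82% fell, and 10.2% and 10.4% with the block. Of 30 other ER folding and ERAD genes, 3 rose and 3 fell, and with the block 6 rose and 7 fell, with a median log2 fold change of 0.0. MBTPS1, the protease that releases ATF6, rose by 0.49 ± 0.057 on the log2 scale (adjusted p = 0.000759), and MBTPS2, which makes the following cut, by 0.26 ± 0.049 (0.0111). ERO1A, the oxidase that recharges disulfide isomerases, fell by 0.46 ± 0.058 (0.00128). Of 18 aminoacyl-tRNA synthetases, known targets of ATF4, 3 rose and none fell (NARS1 by 0.25, MARS1 by 0.32 and GARS1 by 0.3), and with the block 6 rose and 3 fell. In amino acid transport 1 of 9 genes rose and none fell, and with the block 4 rose and 1 fell. The gene that rose without the block was SLC3A2, the partner chain of SLC7A11. SLC3A2 had 111 to 179 CPM with ephrin-B1 siRNA, against 85.3 to 121 CPM without it (log2 fold change 0.44 ± 0.11, adjusted p = 0.0493). Of 8 genes of serine and one-carbon metabolism, ALDH1L2 rose by 0.73 and PYCR1 fell by 0.38 on the log2 scale. With the block 2 of the 8 rose and 3 fell.

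The remaining lists are read against the same shares of all genes. Of 18 other integrated stress response genes tested, 0 rose and 2 fell, VEGFA and STC2. With the block 5 of the 18 rose and 3 fell. STC2 averaged 203.4 CPM in ephrin-B1 siRNA libraries, against 280.1 CPM in Ctrl libraries. With EphB2-Fc its means lay near each other, at 342.3 CPM with the siRNA and 347.7 CPM without it. In the cytosolic heat shock list 1 of 10 genes rose (HSPH1, by 0.28) and none fell, and with the block 3 rose and 1 fell. In the mitochondrial stress list 1 of 8 rose (HSPA9, by 0.25) and none fell, and with the block 2 rose and none fell. The NRF2 list, antioxidant genes of which several also respond to ATF4, had GCLC rising by 0.29 and TXNRD1 falling by 0.87 ± 0.061 (adjusted p = 6.48e-05), the largest fall among the genes of these lists that passed. TXNRD1 had 128 to 175 CPM with ephrin-B1 siRNA, against 252 to 294 CPM without it. With the block 2 of the 8 genes of the NRF2 list rose and 1 fell.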

How the data were processed

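HMC3 RNA was depleted of rRNA and sequenced as paired 100-base reads. The authors ran kallisto against Ensembl 109 cDNA (GRCh38; its version and strand setting are not given in the sources used here) and deposited estimated counts and TPM per transcript. Transcripts were paired by ID with GENCODE 44 (167067 of 188753, holding 95.25 to 95.98% of counts), summed per gene and rounded. The 36 genes and all lists were chosen with earlier results of these data known. A gene needed at least 10 counts in all to enter edgeR 4.0.16 (TMM, quasi-likelihood, all 4 groups in 1 fit, Benjamini-Hochberg adjustment over 21601 genes); SE is the absolute log2 fold change over the square root of F. The first fit given has no block, after the study's methods, which name DESeq2 without one. The block pairs libraries by the experiment number in the deposited names: deviations from group means correlated at 0.74 to 0.82 for replicates 1 and 2, at 0.05 to 0.38 for replicate 3 and at -0.81 to 0.19 between numbers (10145 genes). The biological coefficient of variation was 0.182 without and 0.0649 with the block. The study calls its replicates biological, and what set them apart is not given in the sources used here. Without the block p-values rest on the spread between libraries of the same group. With it the average differences between experiments are taken out, and p-values rest on the spread that remains. Both cover these 3 experiments only. CPM are scaled by TMM; estimated counts have no molecular identifiers. Named in full were genes past the threshold in either fit, the 4 with the smallest p, and ATF4, DDIT3, ATF3, XBP1 and HSPA5; up to 3 genes per other list. Alternatives were DESeq2 1.42.0, DESeq2 size factors, other filters, only the groups compared, a transcript length offset, limma 3.58.1 on log2(TPM + 1) and leaving libraries out. Figures were drawn with matplotlib 3.10.9. Scripts were tested on simulated data.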

Additional observations from a re-analysis of the deposited data

How the results depend on the processing

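With the replicate block the counts of the 36 genes past the threshold were 19 for EphB2 + ephrin-B1 siRNA against EphB2, 15 for ephrin-B1 siRNA against Ctrl, 22 for EphB2 + ephrin-B1 siRNA against Ctrl, 4 for EphB2 + ephrin-B1 siRNA against ephrin-B1 siRNA, 1 for EphB2 against Ctrl, and 23 and 7 for the means of both knockdown and both EphB2 comparisons. Of all genes 9.93%, 13.6%, 15.1%, 6.93%, 5.34%, 20.6% and 14.0% passed in the same fits. DESeq2 with the block gave 18, 17, 21, 3, 1, 23 and 7 in that order, against 8.42%, 11.3%, 12.7%, 5.92%, 5.14%, 17.0% and 11.1% of all genes. The block without replicate 3 of every group gave 7, 7, 11, 0, 0, 16 and 1, against 1.61%, 4.02%, 5.65%, 0.818%, 0.678%, 10.6% and 5.0%. DESeq2 without the block gave 10, 9, 15, 1, 0, 16 and 2, against 3.06%, 4.67%, 5.32%, 1.32%, 0.949%, 8.89% and 3.73%. For the first 3 comparisons limma on log2(TPM + 1) gave 0 each, against 0.00926%, 0.0% and 0.0185% of all genes. A fit of only the groups compared also gave 0 each, against 0.0%, 0.448% and 0.471%. A transcript length offset gave 1, 1 and 2, against 0.0972%, 0.56% and 0.579%. The filterByExpr filter gave 4, 4 and 7 for these comparisons, against 1.27%, 3.26% and 3.84%. Limma gave 1 for the knockdown mean, against 0.0926%. Without the block, leaving out a library or a replicate number gave 0 to 3, 0 to 4, 0 to 7 and, for the knockdown mean, 0 to 13. Of all genes 0.0% to 0.575%, 0.0% to 1.93%, 0.0% to 2.12% and 0.0% to 5.13% passed in these fits. Between replicates 1 and 2, 1 and 3, and 2 and 3, limma gave 14, 0 and 0, the length offset gave 4 for 1 and 3 and 2 for 2 and 3, and leaving out the ephrin-B1 siRNA group gave 4 for 1 and 3. Under limma the log2 fold change reversed for ATF3 in EphB2 + ephrin-B1 siRNA against Ctrl (-0.01) and, in the mean of both EphB2 comparisons, for SDF2L1 (-0.01), PDIA6 (-0.08) and SLC7A11 (-0.04), where the median of all genes lay at -0.111; the cause was not tested. The interaction stayed at 0 in every fit run.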
